A study of Mus musculus with 14 samples.

Results

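Iron enters a cell, is stored in it and leaves it through a small set of proteins, and 10 genes of that set were followed here through 2 experiments on cultured mouse bone marrow cells. The genes were taken by symbol from the 55367 rows of each count table, and all 10 were found in both tables. They comprise the transferrin receptor Tfrc, the endosomal reductase Steap3 and the metal transporter Slc11a2, which bring iron in, and Slc11a1, a metal transporter of the phagosome. The ferritin chains Fth1 and Ftl1 store iron, ferroportin (Slc40a1) exports it, heme oxygenase 1 (Hmox1) frees it from heme, and Aco1 and Ireb2 encode the iron regulatory proteins.

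All cells were primary cells of wild-type genotype, taken from bone marrow and depleted of cells bearing mature lineage markers, then grown in IMDM medium with serum and the cytokines IL3, IL6 and SCF. Of the first experiment, 3 libraries came from cells given a pSMAL lentivirus with luciferase and 3 from cells given the same vector with SETBP1-D868N, a mutant form of the nuclear protein SETBP1. In the second experiment, both groups carried SETBP1-D868N, and 4 libraries came from cells kept in the solvent DMSO and 4 from cells kept in 2.5 µM PF-9363 for 4 days. PF-9363 is an inhibitor of the MYST family of histone acetyltransferases. The mutant was added by virus to cells that keep their own Setbp1, and PF-9363 was not given to luciferase cells in the libraries used here. The labels do not say whether replicates came from separate animals or cultures, so the p-values measure the spread between these libraries, which may be technical.

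Libraries of the first experiment were made with the Watchmaker kit from 500 ng of RNA and held 60147266 to 68730322 counts each, whereas those of the second were made by Novogene from 100 ng and held 7083731 to 10359093. Counts on the mouse Setbp1 gene were 5, 6 and 6 in the luciferase libraries and 23, 20 and 24 in the SETBP1-D868N libraries, and 0 to 2 in each library of the second experiment, so this row does not check the viral transgene there. The stem and progenitor list of 10 markers summed to 378 to 412 CPM (counts scaled to the library total with TMM factors) in the first experiment and 157 to 356 CPM in the second. Neutrophil markers summed to far more, 16514 to 25848 CPM and 16907 to 21693 CPM over 11 genes. The 10 lymphoid markers were nearly absent, at sums of at most 0.937 CPM and 2.06 CPM. Kit is in both the stem and progenitor list and the mast cell and basophil list. Its mean was 180 CPM with luciferase, 115 CPM with SETBP1-D868N, 69.8 CPM in DMSO and 191 CPM in PF-9363.

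Cells take up transferrin-bound iron through Tfrc, reduce it with Steap3 in the endosome and pass it to the cytosol through Slc11a2, where surplus iron is held inside the ferritin shell. Iron regulatory proteins bind a short RNA hairpin, the iron-responsive element, when iron is scarce. A hairpin in the 5′ untranslated region (UTR) then blocks translation, as in ferritin and ferroportin, while hairpins in the 3′ UTR protect the Tfrc message from decay. Macrophages recycle iron from engulfed red cells by means of Hmox1 and Slc40a1. Ferritin, Hmox1 and Slc40a1 are also transcribed under the control of the redox regulators NRF2 and BACH1.

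The hairpins are shown because their place, in the 5′ or the 3′ UTR, goes with the kind of control the iron regulatory proteins have over a message. The UTRs of the GENCODE M21 transcripts (build GRCm38) were searched on the sense strand for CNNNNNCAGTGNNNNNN in which the 5 bases on either side of the loop CAGTGN pair with each other, by Watson-Crick or G-U pairing. Such a match was present in the 5′ UTR of 0.128% and the 3′ UTR of 0.581% of 21875 genes. Among the 10 iron genes, 3 matched in the 5′ UTR and 1, Tfrc, matched 4 times in its 3′ UTR. Among the other listed iron and heme genes with a match were Alas2 (erythroid heme synthesis), in the 5′ UTR, and Bola3, in the 3′ UTR. Capitals mark the loop, and each line runs 5′ to 3′ along the message.
Fth1: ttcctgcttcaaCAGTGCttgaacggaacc
Ftl1: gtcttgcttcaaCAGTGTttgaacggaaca
Slc40a1: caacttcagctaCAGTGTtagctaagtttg
Tfrc, match 1: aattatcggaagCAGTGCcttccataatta
Tfrc, match 2: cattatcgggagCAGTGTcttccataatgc
Tfrc, match 3: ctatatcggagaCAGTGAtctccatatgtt
Tfrc, match 4: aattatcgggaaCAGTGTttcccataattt
The Fth1 match lies in exon 1 at chr19:9982732-9982761 (plus strand), the Ftl1 match in exon 1 at chr7:45459778-45459807 (minus strand) and the Slc40a1 match in exon 1 at chr1:45925464-45925493 (minus strand). The Tfrc matches lie in exon 19 on the plus strand, at chr16:32631219-32631248, chr16:32631598-32631627, chr16:32631663-32631692 and chr16:32631710-32631739. The other 6 genes held no match of these letters in the annotated UTRs, which says nothing further about them, and counts per gene do not separate the transcript forms of Slc11a2.

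On the same build the uptake genes span chr16:32608920-32632794 (Tfrc, plus strand, 19 exons), chr15:100387898-100425072 (Slc11a2, minus strand) and chr1:120190757-120272705 (Steap3, minus strand), and Slc11a1 spans chr1:74375195-74386062 (plus strand). Fth1 lies at chr19:9980598-9985098 (plus strand, 4 exons), Ftl1 at chr7:45457944-45459884 (minus strand, 4 exons), Slc40a1 at chr1:45908068-45926523 (minus strand) and Hmox1 at chr8:75093621-75100589 (plus strand). Aco1 lies at chr4:40143081-40198338 and Ireb2 at chr9:54863789-54912530, both on the plus strand. Of the 10, Ftl1 and Slc11a2 share exon sequence with a gene model on the opposite strand. That of Slc11a2, Gm5475, held 0 to 3 counts per library of the first experiment, where Slc11a2 held at least 1976, and 10 to 34 per library of the second, where Slc11a2 held at least 126.

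Per length of transcript, ferritin stood far above the rest. Ftl1 reached 1748 ± 66.8 and Fth1 1088 ± 48.6 RPKM in the luciferase libraries (SD, n = 3), where RPKM is the scaled CPM per 1000 bases of transcript, followed by Tfrc at 117 ± 2.58 RPKM and Hmox1 at 44.2 ± 1.51 RPKM. Slc40a1 came next at 28.4 ± 1.25 RPKM, then Ireb2 at 22.7 ± 1.02, Aco1 at 16.9 ± 0.117, Steap3 at 15.7 ± 0.208, Slc11a2 at 10.6 ± 0.373 and Slc11a1 at 4.43 ± 0.384 RPKM, with no neighbours in this order overlapping. In the SETBP1-D868N libraries Ireb2 (21.8 ± 0.947 RPKM) and Slc40a1 (20.1 ± 1.21 RPKM) overlapped, and Steap3 (17.8 ± 0.295 RPKM) lay above Aco1 (15.7 ± 0.527 RPKM).

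The order differed in the second experiment, whose levels come from another library preparation and were not tested against the first. In DMSO the highest levels were again those of Ftl1 (2339.8 ± 75.5 RPKM, SD, n = 4), Fth1 (458 ± 15.8 RPKM) and Tfrc (118 ± 5.20 RPKM). Slc11a2 (4.71 ± 0.419 RPKM) and Steap3 (4.63 ± 0.635 RPKM) did not differ beyond their spread, and Slc11a1 was lowest at 0.587 ± 0.111 RPKM. In PF-9363, Hmox1 (157 ± 22.7 RPKM) stood above Tfrc (99.7 ± 6.95 RPKM), Slc11a1 (25.0 ± 1.27 RPKM) stood above both regulators, and Ireb2 (20.7 ± 1.05 RPKM) and Aco1 (19.3 ± 1.94 RPKM) overlapped. The plot of each gene by library shows these levels in CPM, not per length.

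**Figure D1:**
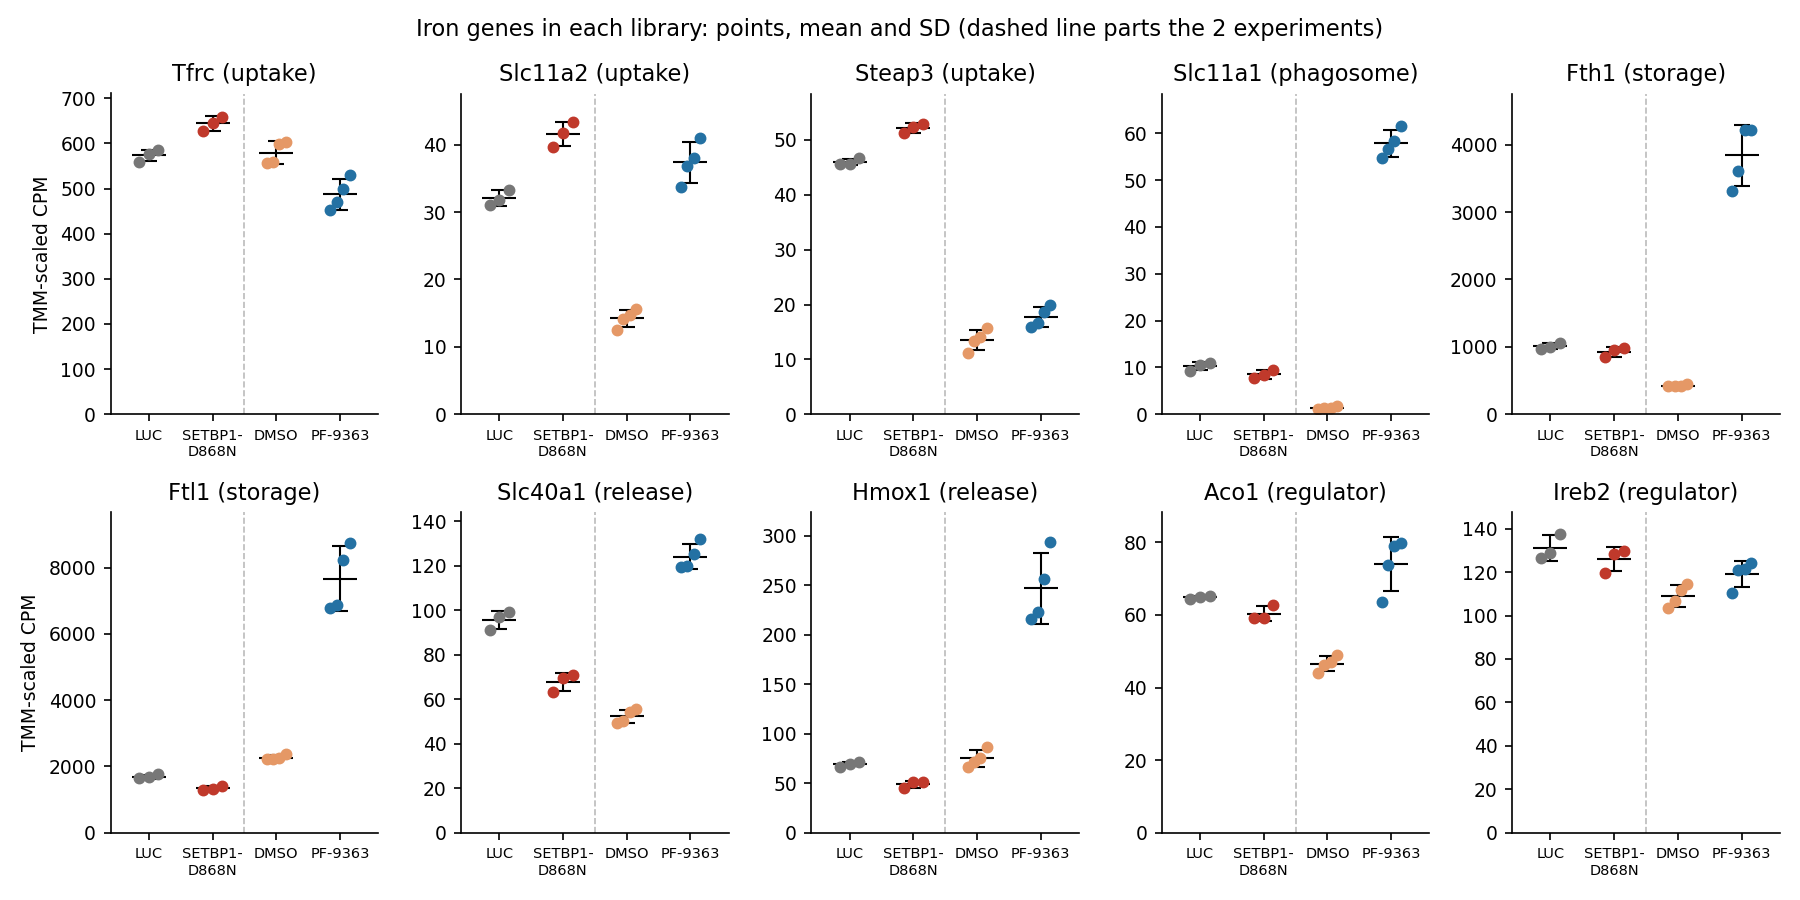
Level of each of the 10 iron genes in TMM-scaled CPM (vertical axes start at 0), with 1 point per library and the mean and SD of each group. LUC is luciferase, and the dashed line parts the 2 experiments, which were not tested against each other. Fth1, Ftl1 and Slc11a1 show the widest gap between DMSO and PF-9363, while Ireb2 overlaps between groups in both experiments.

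The first comparison asked what SETBP1-D868N changed against luciferase. The 3 genes that bring in transferrin iron, Tfrc, Steap3 and Slc11a2, rose by 1.12 to 1.30-fold. Ferroportin and heme oxygenase 1 fell most, to 0.709 and 0.707 of the luciferase level, and the ferritin light chain fell to 0.790. The call was an adjusted p under 0.05 in edgeR's quasi-likelihood test over all 15794 genes tested. By it 3 of the 10 genes were higher, 5 were lower and 2 were not called, against 24.5% of all genes higher and 22.7% lower (47.2% in either direction). The groups did not overlap for 7 of the 10, against 56.7% of all genes, and none of the 10 changed 2-fold, as 1.34% of genes did upward and 2.48% downward. The median log2 fold change was -0.11 over the 10 genes and 0.0043 over all genes, and the median absolute change was 0.22 against 0.19. In size, then, these changes lay near those of the genes at large.

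Among the uptake genes, Slc11a2, the DMT1 transporter that carries iron out of the endosome, measured 31.1, 31.8 and 33.3 CPM in the luciferase libraries and 43.3, 41.7 and 39.7 CPM with SETBP1-D868N. The groups were apart, with a log2 fold change of 0.37 (SE 0.043, adjusted p = 2.15e-05). Tfrc, the receptor for transferrin, measured 584, 559.7 and 576 CPM against 627, 646 and 659 CPM. Each SETBP1-D868N library thus lay above each luciferase library, by a log2 fold change of 0.17 (SE 0.027, adjusted p = 0.000278). Steap3, which reduces ferric iron in the endosome, measured 45.6, 46.7 and 45.6 CPM against 52.3, 51.3 and 53.0 CPM. It rose by 0.18 on the log2 scale (SE 0.032, adjusted p = 0.000488) with no overlap. All 3 calls held under every alternative setting run for them.

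Slc11a1, which moves divalent metals across the phagosome membrane of macrophages and neutrophils, was low in this experiment. It measured 11.0, 9.26 and 10.6 CPM with luciferase and 8.38, 9.52 and 7.73 CPM with SETBP1-D868N, so that the groups overlapped. Its log2 fold change was -0.26 (SE 0.088, adjusted p = 0.0276). The call was lost with scaling by library size alone (adjusted p = 0.0577). It was also lost without luciferase library 1 or 3 or SETBP1-D868N library 1 or 3, with adjusted p-values of 0.0981, 0.0922, 0.0877 and 0.0933.

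In storage, the ferritin chains moved unequally. Ftl1, the light chain, measured 1764, 1671 and 1640.1 CPM in the luciferase libraries and 1401, 1282 and 1325 CPM with SETBP1-D868N, without overlap. It fell by 0.34 on the log2 scale (SE 0.037, adjusted p = 2.95e-05). Fth1, the heavy chain, which carries the ferroxidase activity that loads iron, measured 1061, 997 and 974 CPM against 989, 949 and 848 CPM, and its groups overlapped. The log2 fold change of -0.12 (SE 0.064, adjusted p = 0.176) did not pass the test, but it passed in DESeq2 (log2 fold change -0.13, adjusted p = 0.0481) and with no filter on low counts in edgeR (adjusted p = 0.00243). The change was -0.063 without SETBP1-D868N library 3 (adjusted p = 0.215) and -0.073 with scaling by library size alone (adjusted p = 0.385). The Fth1 count per Ftl1 count, which does not depend on scaling, was 0.597 ± 0.0039 with luciferase and 0.695 ± 0.051 with SETBP1-D868N (SD, n = 3 each). All 3 SETBP1-D868N libraries were above all luciferase libraries, and the exact two-sided permutation test gave p = 0.1, the smallest that 3 against 3 allows.

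The genes of release fell together. Slc40a1, ferroportin, the exporter of iron from the cell, measured 90.9, 97.0 and 99.1 CPM with luciferase and 70.8, 69.4 and 63.1 CPM with SETBP1-D868N. The groups were well apart, and the gene fell by 0.50 on the log2 scale (SE 0.047, adjusted p = 1.38e-05). Hmox1, which opens the heme ring and frees its iron, measured 69.7, 71.7 and 66.9 CPM against 51.1, 51.0 and 45.1 CPM, and also fell by 0.50 (SE 0.049, adjusted p = 1.50e-05) with no overlap. Both calls held under every alternative setting run for them.

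Of the regulators, Aco1 and Ireb2, neither moved far. Aco1 encodes iron regulatory protein 1, which doubles as the cytosolic aconitase when it holds an iron-sulfur cluster. It measured 65.0, 64.3 and 65.2 CPM with luciferase and 59.0, 59.3 and 62.6 CPM with SETBP1-D868N, and its log2 fold change of -0.10 (SE 0.032) was called at an adjusted p of 0.0196. That call was lost with scaling by library size alone (log2 fold change -0.055). It was also lost without luciferase library 1 or 3 or SETBP1-D868N library 1 or 2, where the adjusted p was 0.0562, 0.0678, 0.0502 and 0.0558. Ireb2 encodes iron regulatory protein 2, whose protein is removed when iron is plentiful. It measured 138, 126 and 129 CPM against 119.7, 128 and 129.8 CPM, overlapped between groups and was not called (log2 fold change -0.056, SE 0.040, adjusted p = 0.279). Without luciferase library 1 the change was -0.018, without SETBP1-D868N library 1 it was -0.024 and with library size alone -0.0067.

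Macrophage and neutrophil markers mostly moved in the same direction as Slc40a1, Hmox1 and Ftl1. Of the 17 macrophage markers, 14 were tested, 13 fell and 1 rose, with a median log2 fold change of -0.68. Their summed level was 2600 to 2724 CPM with luciferase and 1560 to 1767 CPM with SETBP1-D868N. C1qa, a complement component of macrophages, fell most, from 18.9 ± 0.989 to 8.87 ± 1.25 CPM, whereas the adhesion molecule Vcam1 rose from 4.43 ± 0.367 to 15.2 ± 0.424 CPM, and Vsig4 had no counts in the first experiment. Erythroid markers summed to 140 to 144 CPM with luciferase and 149 to 157 CPM with SETBP1-D868N, and 4 of the 10 tested rose. Most of these sums came from Tal1 (84.4 CPM with luciferase, 84.3 CPM with SETBP1-D868N) and Gata1 (43.5 and 44.9 CPM), neither of which was called. The 4 that rose were low, the highest being Hbb-bt at 7.84 CPM with SETBP1-D868N. Cell division genes rose in 14 of 20 cases with a median of 0.095. Neutrophil markers rose in 3 cases and fell in 8 of 11, with a median of -0.74 and summed levels of 24795 to 25848 CPM with luciferase and 16514 to 19022 CPM with SETBP1-D868N. The neutrophil surface marker Ly6g fell from 40.0 ± 3.27 to 21.4 ± 2.37 CPM, and myeloperoxidase (Mpo), a granule enzyme of earlier neutrophil stages, rose from 2761 ± 90.6 to 3643 ± 19.8 CPM. Mast cell and basophil markers rose in 5 and fell in 7 of 12, with a median of -0.60, but their sum went from 5948 to 6172 CPM to 6382 to 6509 CPM. Stem and progenitor markers rose in 4 and fell in 5 of 10, and both lymphoid markers that could be tested fell. These marker counts stand against 24.5% of all genes higher and 22.7% lower. In bulk RNA, fewer cells of a type and less RNA per cell cannot be told apart, and the part of these cell types in the changes of the iron genes was not tested.

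PF-9363 was then compared with DMSO in cells that all carried SETBP1-D868N. Both ferritin chains, ferroportin, heme oxygenase 1, Slc11a1, Slc11a2, Steap3 and Aco1 rose, while the transferrin receptor alone among the 10 fell. The rise was 42.1-fold for Slc11a1, 9.02-fold for Fth1, 3.38-fold for Ftl1, 3.28-fold for Hmox1, 2.62-fold for Slc11a2 and 2.37-fold for Slc40a1. By the same call, 8 of the 10 were higher, 1 was lower and 1 was not called, against 36.6% of 13456 genes higher and 39.4% lower (76% in either direction). The groups did not overlap for 9 of the 10 against 70.3% of all genes. A called rise of 2-fold or more was seen for 6 of the 10 against 15.8% of all genes, and a called fall of that size for 0 of the 10 against 18.1%. The median log2 fold change was 1.32 over the 10 genes and -0.038 over all genes, and the median absolute change was 1.32 against 0.65. The plot of log2 fold changes sets both comparisons side by side.

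**Figure D2:**
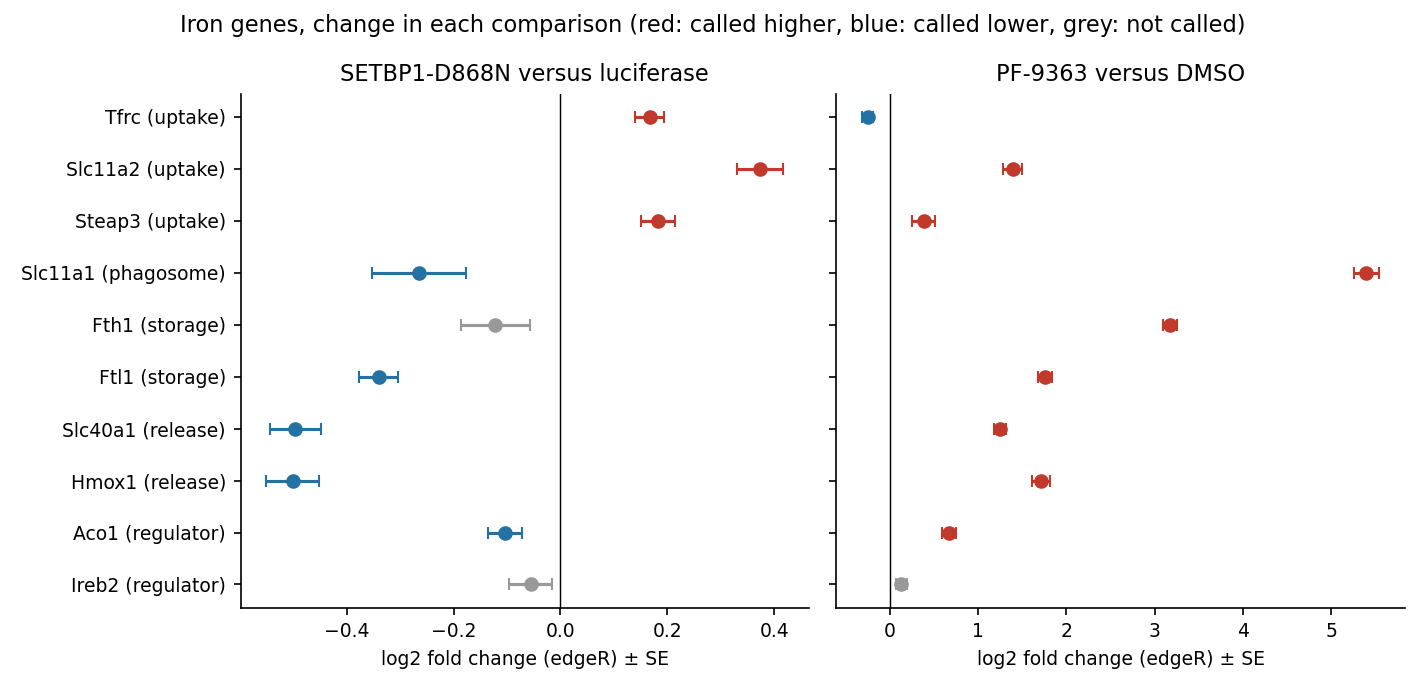
Log2 fold change of each of the 10 iron genes with its SE, for SETBP1-D868N against luciferase and for PF-9363 against DMSO, on horizontal axes of different range. Red marks a gene called higher, blue one called lower and grey one not called; Slc11a1 reached 5.39 with PF-9363 and Tfrc -0.25.

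Storage changed most in amount. Fth1 measured 422, 412, 422 and 447 CPM in the DMSO libraries and 3607, 3316, 4225 and 4217 CPM in the PF-9363 libraries. No library came near the other group, and the log2 fold change was 3.17 (SE 0.077, adjusted p = 2.13e-23), larger in size than that of 96.3% of all genes. Ftl1 measured 2228, 2211, 2248 and 2372 CPM against 6795, 6866, 8233 and 8756 CPM, also wholly apart, with a log2 fold change of 1.76 (SE 0.076, adjusted p = 1.06e-17). Together the chains took 0.286% to 0.301% of all counts in DMSO and 0.955% to 1.17% in PF-9363.

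The heavy chain rose more than the light chain. The Fth1 count per Ftl1 count was 0.188 ± 0.0011 in DMSO and 0.502 ± 0.024 in PF-9363 (SD, n = 4 each), a difference of 1.42 on the log2 scale. The exact two-sided permutation test gave p = 0.0286, the smallest that 4 against 4 allows, and every PF-9363 library lay above every DMSO library. The Tfrc count per Fth1 count, given as a description, was 1.32, 1.45, 1.43 and 1.25 in DMSO and 0.130, 0.136, 0.125 and 0.118 in PF-9363. In the first experiment it was 0.551, 0.561 and 0.592 with luciferase and 0.634, 0.681 and 0.777 with SETBP1-D868N, so the balance of the receptor message against the storage message lay on opposite sides of its control in the 2 experiments, as the plot of the ratios shows.

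**Figure D3:**
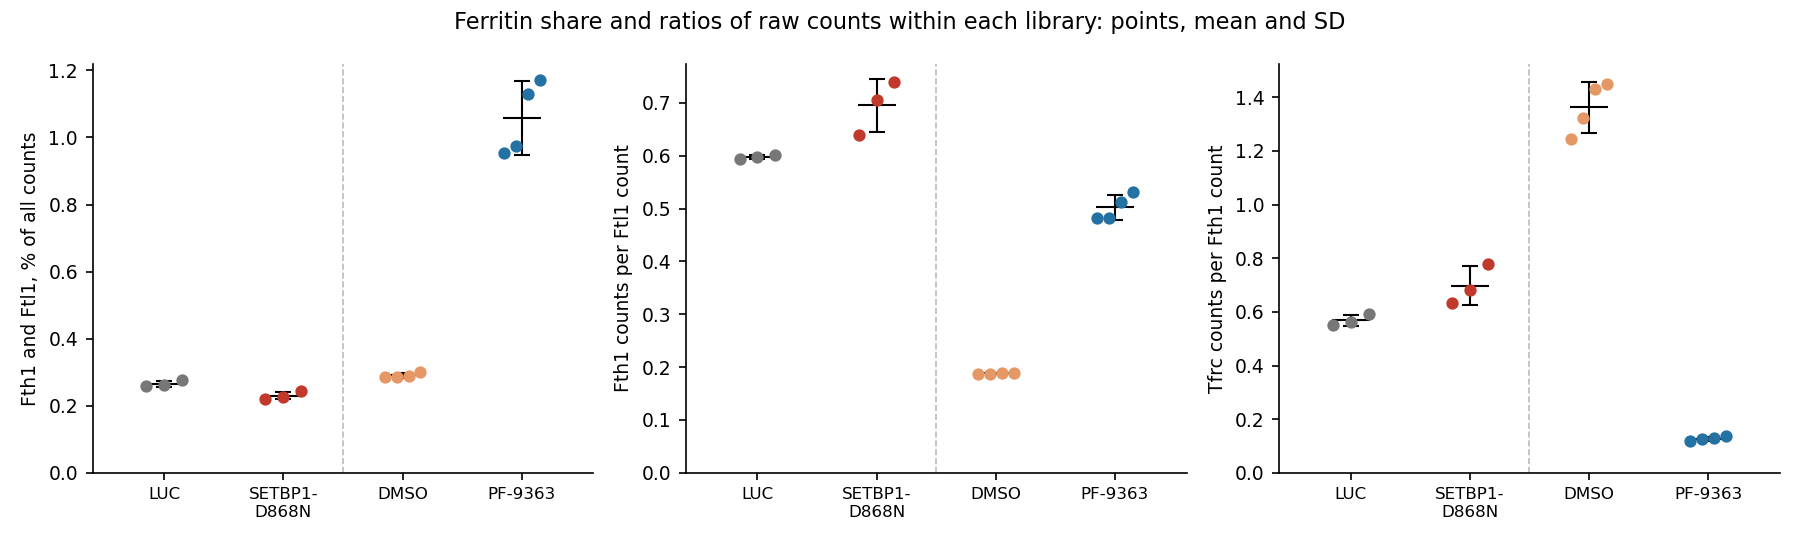
Share of all raw counts taken by Fth1 and Ftl1 together (%), and the count ratios Fth1 to Ftl1 and Tfrc to Fth1 (vertical axes start at 0), with 1 point per library and the mean and SD of each group. The Fth1 to Ftl1 ratio was 0.188 in DMSO and 0.502 in PF-9363, and the Tfrc to Fth1 ratio was between 0.118 and 0.136 in all 4 PF-9363 libraries.

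A limit on Ftl1 belongs to the second experiment. Gm10252, a gene model on the opposite strand at chr7:45459469-45460300 (GRCm38), covers the first exon of Ftl1, where the hairpin lies. It held 16 to 49 counts per library of the first experiment but 18670 to 66070 per library of the second, there 0.780 to 0.843 counts per Ftl1 count in DMSO and 0.818 to 0.898 in PF-9363. Whether the counting used strand is not given in the sources used here, so reads of the 2 genes cannot be told apart. With both summed, the log2 fold change was 1.78 (adjusted p = 9.00e-19) and the log2 difference of the Fth1 to Ftl1 ratio was 1.39 (exact permutation p = 0.0286). The Ftl1 levels, ferritin shares and Fth1 to Ftl1 ratios given and plotted for the second experiment leave out Gm10252. These levels would differ if its reads came from Ftl1, which was not tested.

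Release rose as well. Hmox1 measured 66.9, 75.8, 71.3 and 86.8 CPM in DMSO and 216, 223, 256 and 293 CPM in PF-9363, with no overlap and a log2 fold change of 1.71 (SE 0.102, adjusted p = 7.65e-10). Slc40a1 measured 54.1, 49.2, 50.1 and 55.6 CPM against 132, 119.6, 125 and 119.8 CPM. Its groups were likewise apart, with a log2 fold change of 1.25 (SE 0.070, adjusted p = 1.25e-15). Both genes therefore moved in opposite directions in the 2 experiments, down with SETBP1-D868N and up with PF-9363, as did Ftl1. Slc11a1 and Aco1 were also called lower with SETBP1-D868N and higher with PF-9363, but their calls with SETBP1-D868N were lost under some settings. Tfrc reversed the other way, up with SETBP1-D868N and down with PF-9363, while Slc11a2 and Steap3 were called higher in both. SETBP1-D868N cells are the changed group of the first experiment and the source of the control of the second, but the libraries are not shared. The share of all genes called in opposite directions was not counted, so these reversals cannot be read as particular to the iron genes.

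Slc11a1 showed the highest fold change of the 10 genes. It held 13, 13, 12 and 19 counts in the DMSO libraries, or 1.29, 1.30, 1.12 and 1.72 CPM, and 567, 424, 364 and 568 counts, or 58.4, 54.7, 56.7 and 61.6 CPM, in the PF-9363 libraries. The log2 fold change of 5.39 (SE 0.142, adjusted p = 4.48e-23) exceeded in size that of 99.5% of all genes, and it stayed between 5.17 and 5.53 under the alternatives. The DMSO level, and with it the size of the fold, thus rests on 12 to 19 counts per library.

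Uptake genes did not move together. Slc11a2 measured 14.8, 12.6, 15.5 and 14.1 CPM in DMSO and 36.8, 33.6, 38.0 and 41.0 CPM in PF-9363, apart by a log2 fold change of 1.39 (SE 0.107, adjusted p = 1.63e-12). Tfrc went the other way, from 558, 598, 604 and 556 CPM to 469.9, 452, 529.5 and 498 CPM. Its groups did not overlap, and it fell by 0.25 on the log2 scale (SE 0.061, adjusted p = 0.000593), or by 0.48 with scaling by library size alone. Steap3 measured 15.7, 11.2, 13.4 and 14.1 CPM against 18.6, 15.9, 19.9 and 16.7 CPM, with the highest DMSO library just under the lowest PF-9363 library. Its log2 fold change of 0.39 (SE 0.129, adjusted p = 0.00874) became 0.16 (adjusted p = 0.276) with scaling by library size alone.

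The regulators again differed from each other. Aco1 measured 48.9, 47.1, 44.1 and 46.2 CPM in DMSO and 78.9, 63.7, 73.6 and 79.9 CPM in PF-9363, without overlap, and rose by 0.67 on the log2 scale (SE 0.080, adjusted p = 1.50e-08), or by 0.44 with scaling by library size alone. Ireb2 measured 107, 114, 112 and 104 CPM against 121, 121, 110.4 and 124 CPM, and the groups overlapped. Its log2 fold change of 0.13 (SE 0.065, adjusted p = 0.0690) did not pass, and its direction turned with scaling by library size alone (-0.10). It did pass with RLE size factors (0.16, adjusted p = 0.0319), in DESeq2 (0.16, adjusted p = 0.0355), without DMSO library 2 (0.15, adjusted p = 0.0428) and without PF-9363 library 3 (0.18, adjusted p = 0.0272).

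Markers of several cell types moved with these changes. Of the 14 macrophage markers tested, 11 rose and 2 fell, with a median of 2.60, and the 17 summed to 1675 to 1910 CPM in DMSO and 9219 to 10997 CPM in PF-9363. The macrophage gene Ms4a7 rose most, from 3.67 ± 0.664 to 53.3 ± 3.50 CPM, and Vcam1 fell from 6.12 ± 0.683 to 0.780 ± 0.265 CPM. Mast cell and basophil markers rose in 11 of 12 cases and summed to 1319 to 1676 CPM in DMSO and 5050 to 6056 CPM in PF-9363. Erythroid markers summed to 25.0 to 29.3 CPM in DMSO and 96.1 to 128 CPM in PF-9363. Most of this came from Tal1 (15.0 CPM in DMSO, 74.4 CPM in PF-9363) and Gata1 (6.47 and 21.7 CPM). Of the 4 erythroid markers tested 3 rose, but Hba-a2 had 0 counts in all libraries, Hbb-bs had 0 in DMSO and Slc4a1 had 0 in PF-9363. The neutrophil markers divided, with 4 higher and 4 lower of 11. The collagenase Mmp8 rose from 65.6 ± 6.70 to 239 ± 21.5 CPM, whereas the primary granule genes fell most, Elane from 1453 ± 70.5 to 1.75 ± 1.49 CPM (log2 fold change -9.66). Mpo (2320.3 ± 304 to 6.35 ± 4.04 CPM) and Prtn3 (1054 ± 86.9 to 7.31 ± 6.27 CPM) fell likewise and are named after their values were seen. The stem and progenitor markers rose in 5 of 9 cases and fell in 1, while 0 lymphoid markers could be tested. All these marker counts stand against 36.6% of all genes higher and 39.4% lower. All 20 cell division genes fell, with a median of -2.48 and summed levels of 3675 to 3985 CPM in DMSO and 613 to 1050 CPM in PF-9363. The part of these shifts in the changes of the iron genes was not tested.

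Other genes of iron handling were read from a list of 39 transporters, binders and regulators. With SETBP1-D868N, 29 were tested, of which 8 rose, 13 fell and 8 were not called, with a median of -0.055. Over all genes, 24.5% rose and 22.7% fell (47.2% in either direction), with a median of 0.0043. The transferrin receptor relative Tfr2 rose from 9.17 ± 0.617 to 18.8 ± 1.62 CPM (log2 fold change 1.04), and the metal importer Slc39a8 rose from 37.9 ± 0.298 to 65.2 ± 2.10 CPM (0.78). Mitoferrin 1 (Slc25a37), which brings iron into mitochondria, rose from 73.7 ± 4.45 to 94.3 ± 4.19 CPM (0.36). Lipocalin 2 (Lcn2), which binds iron-carrying siderophores, fell from 1187 ± 45.7 to 746 ± 58.5 CPM (-0.67), and transferrin (Trf) fell from 66.2 ± 2.04 to 46.6 ± 1.58 CPM (-0.51). The scavenger receptor Lrp1 was called lower at an adjusted p of 0.0495 (-0.85), and the call was lost without luciferase library 2 or 3 or any 1 SETBP1-D868N library, with adjusted p-values of 0.0703 to 0.145. It was also lost with library size alone (adjusted p = 0.0537) and with no filter on low counts (adjusted p = 0.0874).

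With PF-9363, 26 of the 39 were tested, of which 18 rose, 4 fell and 4 were not called, with a median of 0.56. Over all genes, 36.6% rose and 39.4% fell (76% in either direction), with a median of -0.038. Lcn2 rose from 478 ± 31.0 to 2732 ± 176 CPM (log2 fold change 2.51). Ceruloplasmin (Cp), the ferroxidase that works with ferroportin, rose from 5.38 ± 0.993 to 30.1 ± 2.82 CPM (2.49), and the metal importer Slc39a14 rose from 4.25 ± 0.635 to 22.6 ± 2.03 CPM (2.41). Slc25a37 fell from 96.4 ± 4.75 to 60.8 ± 9.23 CPM (-0.66), and the heme transporter Slc48a1 fell from 197 ± 14.1 to 166 ± 13.2 CPM (-0.24). The other genes called lower, Tfr2 (-1.24) and the hemoglobin scavenger receptor Cd163 (-2.70), stayed under 5 CPM and are named after their values were seen. Among the list genes named so far, Lcn2, Slc25a37, Tfr2, Trf, Slc48a1 and Lrp1 were called in opposite directions in the 2 experiments. Here too, the share of all genes that did so was not counted. Slc39a8 and Slc39a14 were called higher in both. With scaling by library size alone, 7 rather than 4 of these genes were called lower.

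The genes that use iron are shown in the plot of the 4 lists. With SETBP1-D868N, 24.5% of all genes tested rose and 22.7% fell (47.2% in either direction). Of the 23 genes of iron-sulfur cluster assembly, 11 rose, 1 fell and 11 were not called. With both directions pooled this was near the all-gene share. A larger share rose and a smaller share fell than among all genes. Their median was 0.14 against 0.0043 over all genes. Among the cluster assembly genes that rose, the chaperone Hspa9 rose by 0.33 and ferredoxin reductase (Fdxr) by 0.28, each on the log2 scale. The scaffold gene Nfu1 was called lower (-0.11, adjusted p = 0.0477) with overlapping groups, and leaving out any 1 library other than SETBP1-D868N library 1 ended the call (adjusted p-values of 0.0748 to 0.145). It was also lost with library size alone (0.251), in DESeq2 (0.0536) and limma-voom (0.0611) and with no robust estimation (0.0663), these again being adjusted p-values. With PF-9363, 36.6% of all genes tested rose and 39.4% fell (76% in either direction), with a median of -0.038. Of the cluster assembly genes 22 were tested, of which 6 rose, 10 fell and 6 were not called. With both directions pooled, this too was near the all-gene share. Their median was -0.20, while the summed level of all 23 went from 1044 to 1110 CPM in DMSO to 1532 to 1574 CPM in PF-9363. Hspa9 rose by 1.24, the scaffold Iscu by 0.73 and the co-chaperone Hscb by 0.47, the last of which was not called with library size alone (0.24). Isca2 fell by 1.03, the cysteine desulfurase Nfs1 by 1.02 and the glutaredoxin Glrx5 by 0.94.

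**Figure D4:**
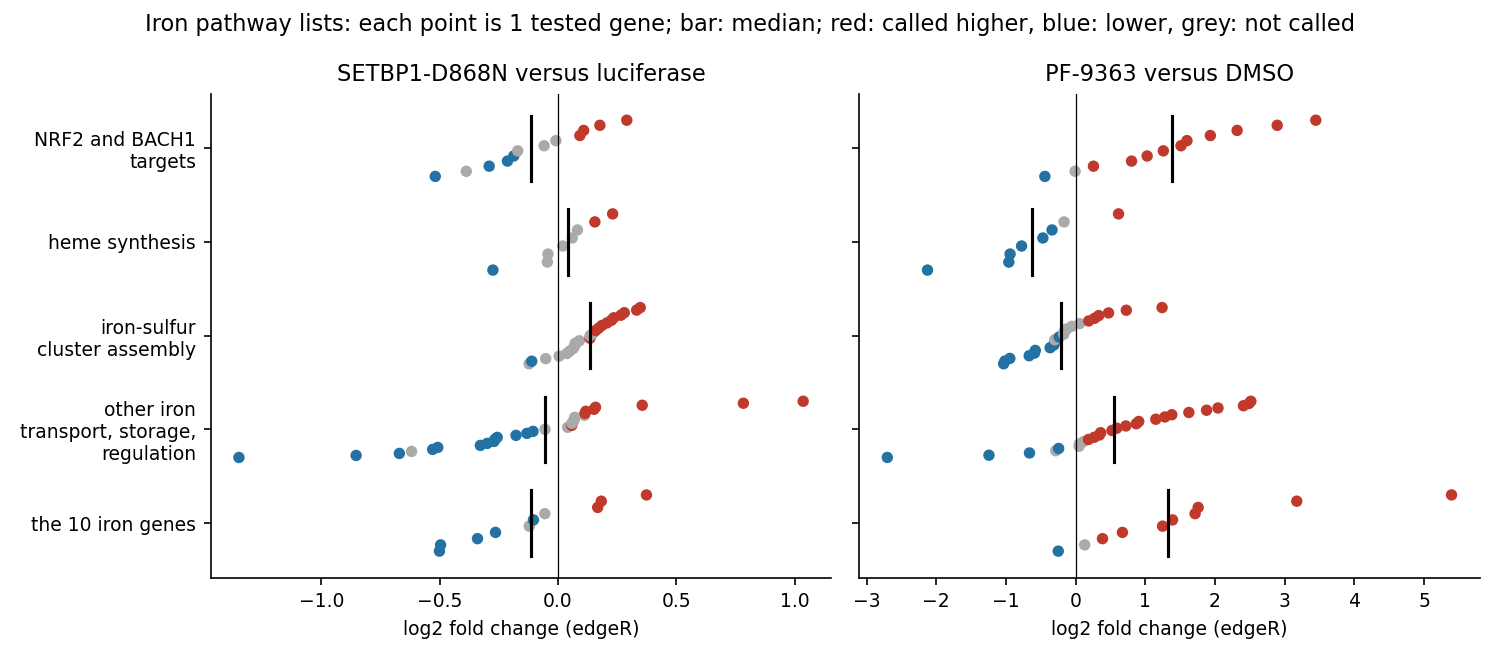
Log2 fold change of the 10 iron genes and of each tested gene of 4 lists (other iron genes, iron-sulfur cluster assembly, heme synthesis, NRF2 and BACH1 targets) in both comparisons, with the median as a bar. Red marks genes called higher, blue lower and grey not called; the NRF2 and BACH1 targets had a median of 1.39 with PF-9363 and heme synthesis one of -0.62.

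Heme synthesis, the other main use of iron, was tested for 8 of 9 enzymes. With SETBP1-D868N, 2 rose, among them Alad (0.23), Alas1, which makes the first precursor, fell (-0.28), and 5 were not called. With PF-9363, Uros alone rose (0.62, with overlapping groups), 6 fell and 1 was not called, with a median of -0.62. Among those that fell were Cpox, from 50.3 ± 5.03 to 11.5 ± 0.737 CPM (-2.13), and Urod (-0.96). For scale, 24.5% of all genes tested rose and 22.7% fell with SETBP1-D868N (47.2% in either direction). With PF-9363, 36.6% rose and 39.4% fell (76% in either direction), with a median of -0.038 over all genes.

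The NRF2 and BACH1 targets are redox genes that share regulators with ferritin and Hmox1, which are not in this list of 12. With SETBP1-D868N, 4 rose, 4 fell and 4 were not called, with a median of -0.11. The glutathione genes Gclc (0.29), Gclm (0.18) and Gsr (0.11) rose, while Osgin1 (-0.52), the autophagy receptor Sqstm1 (-0.29) and Srxn1 (-0.21) fell. With PF-9363, 10 of 12 rose, 1 fell and 1 was not called, with a median of 1.39. The cystine importer Slc7a11 rose from 24.5 ± 1.44 to 267 ± 61.0 CPM (3.45), Sqstm1 from 234 ± 10.9 to 1742 ± 176 CPM (2.89) and Prdx1 from 90.0 ± 7.25 to 449 ± 67.8 CPM (2.32), while Gsr fell (-0.44). The shares of all genes tested were 24.5% higher and 22.7% lower with SETBP1-D868N, and 36.6% higher and 39.4% lower with PF-9363.

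Likeness of pattern was measured over the 14 libraries as the root mean square difference of log2 CPM, centred within each experiment, against 10953 genes. The genes most like Tfrc were Rbm45 (0.051), Eif3e (0.053) and Ube4b (0.057). Those most like Hmox1 were Zfp36 (0.077), Plaur (0.095) and Ftl1 (0.096), so that 1 of the 10 iron genes was among the closest to another. Those most like Slc40a1 were Nfam1 (0.051), Myo1f (0.069) and Dhrs3 (0.079). These values describe the libraries and share their scaling, and no test was made on them.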

How the data were processed

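Messenger RNA was measured in 14 libraries, grouped by the sample titles (luciferase and SETBP1-D868N, 3 each; DMSO and PF-9363, 4 each). Per the labels, each of the 2 deposited tables (1 per experiment) holds the authors' raw counts by gene symbol. The submitters' processing notes name STAR, DESeq2 and the builds GRCm38 and mm10; versions, the counting program, annotation, strand handling and the treatment of reads with several matches are not given in the sources used here. No blank or summary entry was found to leave out, and 0 columns had no sample. The 10 genes and the lists were chosen with earlier results of these data known.

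The remaining steps were run here in R 4.3.3. Low genes were filtered per experiment with filterByExpr of edgeR 4.0.16 (minimum count 10, minimum total 15), scaled by TMM and compared by edgeR's quasi-likelihood test with robust estimation and the group as single factor. Benjamini-Hochberg adjustment ran over all genes tested, with calls made below 0.05. The SE was derived from the F statistic, as the size of the log2 fold change over the root of F. All 10 genes passed the filter in both experiments. RPKM values use the length of the lowest-numbered APPRIS principal transcript of GENCODE M21. A count of 0 allows up to 0.0436 to 0.0499 CPM in the first experiment and 0.290 to 0.424 CPM in the second (3 counts, counting error only).

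From each of the 4 pathway lists the text names, per comparison and direction, up to 3 called genes of largest fold change with at least 5 CPM in the higher group, and from marker lists the extremes and genes at 0; some genes that the rule picks are not reported here. Same-numbered libraries did not deviate together (correlations -0.0966 to -0.0373 and -0.0413 to 0.0141), so they were not treated as pairs. Alternatives were RLE size factors, library size alone, other filters, DESeq2 1.42.0, limma-voom (limma 3.58.1), no robust estimation, a replicate block, ferritin summed with its annotated copies and each library left out. The sums of Ftl1 with Gm10252 and of Fth1 with its remaining pseudogene rows were added after seeing the data.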

Additional observations from a re-analysis of the deposited data

How the results depend on the processing

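Scaling by library size alone had the widest effect. It shifted the median log2 fold change of all genes by -0.23 with PF-9363, with 36.2% rather than 48.1% of calls higher, and by 0.049 with SETBP1-D868N, with 62.1% rather than 51.9% higher. Under it 3 rather than 5 of the 10 genes were lower with SETBP1-D868N, 7 rather than 4 other iron genes were lower with PF-9363, and Ireb2 turned to -0.10 with PF-9363. Slc48a1 (-0.47), Gsr (-0.67) and Uros (0.39) moved by over 1.5 times but kept their calls. Leaving out 1 library gave 3 to 5 genes lower with SETBP1-D868N. With a replicate block, 8 and 9 of the 10 genes were called, as without it; in the first experiment Slc11a1 (adjusted p = 0.0749), Lrp1 (0.165) and Nfu1 (0.0683) were lost and Fth1 was gained (-0.12, adjusted p = 0.0149), and no library correlated best with its own number. Calls over all genes moved to 3416 higher and 3224 lower in the first experiment and 4885 and 5239 in the second with the block. The Fth1 to Ftl1 log2 difference ran from 0.17 to 0.28 and from 1.39 to 1.44 without single libraries. Annotated ferritin copies held at most 0.129% of the Ftl1 counts and 0% of the Fth1 counts, or 0.0222% of the latter with the remaining pseudogene rows. At 12 to 19 counts, Slc11a1 in DMSO is the value that depth limits most.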

Other observations

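Genes that act on iron regulatory protein 2, on ferritin or in heme breakdown, and 2 redox regulators, were chosen for this paragraph after their values were seen. Fbxl5, the iron sensor that marks iron regulatory protein 2 for removal, fell with SETBP1-D868N from 68.6 to 57.0 CPM (log2 fold change -0.27) and rose with PF-9363 from 85.6 to 315 CPM (1.88), while the level of the Ireb2 message was not called in either comparison. Blvrb, a biliverdin reductase that acts after heme oxygenase, went from 19.9 to 16.5 CPM (-0.27) and from 17.7 to 73.0 CPM (2.04). Ncoa4, the receptor that delivers ferritin to lysosomes, was not called with SETBP1-D868N (0.069) and rose by 0.27 with PF-9363, a call lost with scaling by library size alone (0.038). Both redox regulators of ferritin, Nfe2l2 and Bach1, fell with SETBP1-D868N (-0.30 and -0.26) and rose with PF-9363 (1.38 and 1.28). These are message levels, and the action of either regulator on the iron genes was not tested.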
